A study of Homo sapiens with 12 samples.

Results

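HCT116 is a human colorectal carcinoma cell line. The comparison described here is the response of wild-type (WT) HCT116 cells to the withdrawal of serum, read from RNA sequencing of polyadenylated transcripts. WT starved cells had been grown normally and then moved to a medium without serum, and WT mock cells stayed in the normal medium. The same 2 culture states were made in cells of this line carrying a knockout (KO) of KDM3A, a histone H3 lysine 9 demethylase, giving KO starved and KO mock cells. In WT refed and KO refed cells fetal bovine serum was added back after 24 h without it. Whether the KO is 1 clone, and the time between any change of medium and harvest other than those 24 h, are not given in the sources used here. There are 12 labelled samples, a pair for each of the 6 groups, but only 1 deposited value per gene and group. None of the differences below therefore has a replicate check or a test, and "higher" and "lower" compare single values. Values are FPKM, fragment counts scaled by the authors to transcript length and to the mapped fragments of the column. The compared genes were the 12954 of 26372 listed features at 1 FPKM or more in WT starved or WT mock cells, and each difference is log2 of (WT starved FPKM + 1) over (WT mock FPKM + 1). A gene was counted as higher or lower when this ratio reached 2-fold.

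Serum supplies cultured cells with growth factors, hormones, lysophospholipids and lipoproteins. Growth factors act through receptor tyrosine kinases on the ERK cascade and the cell cycle, lysophospholipids act on the actin cytoskeleton and on the transcription factors SRF and YAP, and lipoproteins deliver cholesterol. When cholesterol in the endoplasmic reticulum runs low, the sensor SCAP carries the SREBP factors out of it. After being cut free they switch on the genes of sterol synthesis. Normal cells that lose serum usually leave the cell cycle before S phase, whereas many tumour lines do so only in part. In these data 6 of 21 cholesterol synthesis enzymes, 2 of 21 replication licensing genes (MCM2 and MCM5) and 5 of 34 interferon-stimulated genes were 2-fold higher in WT starved cells. Of 46 mitosis genes 25, of 29 hypoxia-induced genes outside glycolysis 18 and of 22 glycolysis genes 9 were 2-fold lower. Over all 12954 features 1.07% were 2-fold higher and 4.06% 2-fold lower. All list counts below are to be read against these shares.

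KDM3A itself was listed at 17.8 FPKM in WT starved and 41.3 FPKM in WT mock cells, and at 19.8 FPKM in WT refed cells. It stood at 3.01 FPKM in KO starved, 3.15 FPKM in KO mock and 3.59 FPKM in KO refed cells, so both genotypes matched their labels. General epithelial markers were present in both WT states. Of 15 epithelial markers 13 were compared and none differed 2-fold, with a median log2 ratio of -0.23. EPCAM, an epithelial adhesion protein, had 150 FPKM in WT starved and 176 FPKM in WT mock cells, and the keratin KRT8, which has many pseudogenes that could share its reads, had 1002 FPKM in WT starved and 1011 FPKM in WT mock cells. VIL1 and LGALS4, both of differentiated intestine, were under 1 FPKM in both. Read counts were not used here. Part of the lowest FPKM values lay on steps. The size of 1 step was searched only between 50 and 100 M fragments (1 M is 1e6), so a value in that range was fixed in advance. With GENCODE lengths of single-transcript genes it was about 70.3 M in the WT starved column (315 genes) and 76.3 M in the WT mock column (185 genes). Over all 6 columns it lay within 62.9 to 76.3 M. The sources do not say how a pair of samples entered its column, so this is an estimate for the column and not for a library.

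One column stood apart. WT mock cells carried transcripts of blood vessel lining and of vascular matrix, most of which were at or near 0 in the other 5 columns. Under the rule that (FPKM + 1) in WT mock be at least 4 times that in each other column, 87 genes longer than short RNA features and 8 short RNA features were high only in WT mock, and they are described separately near the end. A 2-fold rule took 223 genes. Their part in the differences of other genes was not tested, and counts are given with and without them.

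Over all 12954 features, 139 (1.07%) were at least 2-fold higher and 526 (4.06%) at least 2-fold lower in WT starved cells, and 12289 (94.9%) lay within 2-fold. The median log2 ratio was -0.20, so the deposited values were shifted slightly towards WT mock. The middle 90% of ratios ran between -0.92 and 0.47. The lower quartile was -0.43 and the upper quartile 0.04, so most features had a negative ratio. Counts of positive or negative ratios in the lists are to be read against that. Rescaling WT starved values by 1.16 (median ratio), 1.14 (upper quartile) or 1.14 (equal sums without short RNA) moved this median to -0.01, -0.03 and -0.04. List medians below are on the deposited scale and are to be read against -0.20. Short RNA features, such as small nucleolar RNA, made up 96 of the 139 higher and 49 of the 526 lower features, although only 280 of them were compared. Their summed level went the other way. Summed FPKM was 1.15e6 with and 522057 without them in WT mock, and 551154 with and 459901 without them in WT starved cells. FPKM of such short features is unstable, and they are not named. Without them and without the genes high only in WT mock, 12587 genes remained. Of these 43 (0.342%) were higher and 390 (3.10%) lower. Of the 390, 136 were also high only in WT mock under the 2-fold rule and 254 were not. No gene of the 43 was 4-fold higher and 19 of the 390 were 4-fold lower. The share of lower genes varied little with expression, between 2.67% and 4.53% over bins of FPKM from 1 upwards, and that of higher genes lay between 0.107% and 0.693%. Of 469 long noncoding RNAs 7 were higher and 9 lower with a median of 0.04, beside 34 higher and 378 lower of 11778 protein-coding genes with a median of -0.21.

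Genes were ranked by ratio among those at 5 FPKM or more in the higher WT column. Short RNA, the genes high only in WT mock by the 4-fold rule, read-through genes and clone-type names were left out. Of the genes with the 15 largest positive ratios so ranked, IFIT3 (log2 ratio 1.68), IFIT2 (1.19) and PARP10 (1.34) are interferon-stimulated. HMGCS1 (1.53), IDI1 (1.32) and FDFT1 (1.27) make sterols, and FASN (1.24) makes fatty acids. UNG (1.22), which removes uracil from DNA, and MCM5 (1.21), a subunit of the replication helicase, serve DNA replication. ABCC3 (1.33) and ABCC2 (1.27) are membrane pumps for conjugated organic anions, and TSPAN1 (1.26) is an epithelial tetraspanin. ELFN1-AS1 (1.34), UGDH-AS1 (1.21) and HOXA10-AS (1.19) are antisense transcripts, whose reads cannot be told apart from those of the overlapping gene because the counting is not stated to use strand. Among the 15 largest negative ratios were the matricellular growth regulator CTGF (-4.82), the actin-binding protein TAGLN (-3.02), the hypoxia-induced ANKRD37 (-2.68), PDGFA (-2.64) and ANGPTL4 (-2.36), the adhesion protein MCAM (-2.35) and the keratin KRT7 (-2.15). The other 8, EDN1, BASP1, SNURF, LINC00659, COL5A2, FAM213A, ACVRL1 and FSTL1, had log2 ratios between -3.78 and -2.09 and met the 2-fold rule for genes high only in WT mock. MCAM had 7.09 FPKM in WT starved, 40.3 FPKM in WT mock and 8.51 FPKM in WT refed cells, and KRT7 had 4.91, 25.2 and 4.91 FPKM. Only their KO levels, up to 32.2 FPKM (MCAM) and 17.1 FPKM (KRT7), kept these 2 outside that rule. SNURF overlaps SNRPN, so its value is uncertain.

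Cholesterol is built from acetyl-CoA through mevalonate, farnesyl diphosphate, squalene and lanosterol. Of the 21 enzymes listed for this route and its branches, 20 had a log2 ratio above 0, 6 were at least 2-fold higher and none was 2-fold lower, with a median of 0.88. HMGCS1, which makes HMG-CoA, had 19.0 FPKM in WT starved against 5.93 FPKM in WT mock cells. IDI1, the isopentenyl diphosphate isomerase, had 36.5 FPKM in WT starved against 14.0 FPKM in WT mock cells, and FDFT1, squalene synthase, had 108 FPKM against 44.1 FPKM. These 3 lie in the early part, the middle and at the branch point of the route. The other 3 past 2-fold were DHCR7, the last reductase (39.7 FPKM in WT starved, 18.4 FPKM in WT mock), mevalonate kinase MVK (12 and 5.37 FPKM) and ACAT2, the thiolase of the first step (26.1 and 12.4 FPKM). The single enzyme with a negative ratio was GGPS1 (-0.28), which leads to geranylgeranyl diphosphate and not to sterols. KO cells, which share no sample with the WT comparison, had 5 enzymes 2-fold higher, none lower and a median of 0.89.

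**Figure D1:**
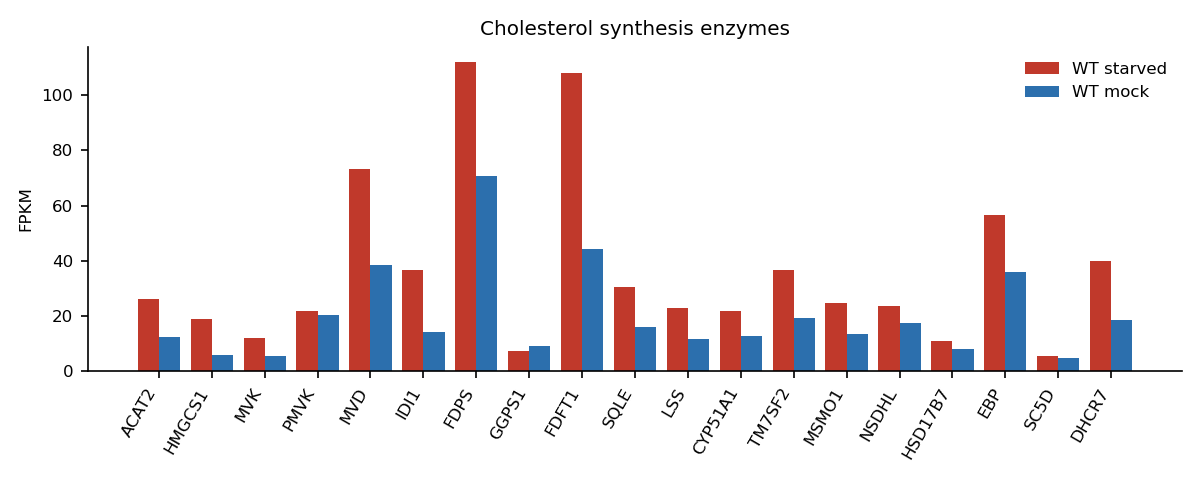
FPKM of 19 of the 21 cholesterol synthesis enzymes, ordered along the route from ACAT2 to DHCR7, with 1 value per group, WT starved in red and WT mock in blue. The red bar is the taller one for every enzyme shown other than GGPS1, and FDPS and FDFT1 carry the tallest red bars, at 112 and 108 FPKM.

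Genes that sense and import sterols were mixed. Of 12 compared, 1 was 2-fold higher, 1 was 2-fold lower and the median was 0.00 as deposited, 0.17 to 0.21 after the 3 rescalings. INSIG1, an SREBP target that retains SCAP in the endoplasmic reticulum, had 25.9 FPKM in WT starved and 12.2 FPKM in WT mock cells. Its relative INSIG2 went the other way, with 8.84 FPKM in WT starved and 25.9 FPKM in WT mock cells. The SREBP genes themselves did not reach 2-fold, with log2 ratios of 0.50 (SREBF1) and 0.36 (SREBF2). Genes of fatty acid synthesis and activation were mixed as well. FASN, fatty acid synthase, was the 1 of 14 genes past 2-fold, at 95.1 FPKM in WT starved and 39.7 FPKM in WT mock cells. The desaturase SCD (log2 ratio 0.79) and the carboxylase ACACA (0.72) were also above 0. Elongases lay on both sides, ELOVL6 at 0.33 and ELOVL5 at -0.66, and so did activating enzymes, ACSS2 at 0.43 and ACSL4 at -0.58. The list median was 0.00, and 0.17 to 0.21 after the rescalings.

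Promoters of 2 sterol enzymes are shown because SREBP acts there together with NF-Y, which binds the CCAAT box. RefSeq promoters (assembly GRCh38.p14, 250 bases before to 50 after the annotated start) were found for 464 of the 601 genes in all lists. They were searched on both strands for TCACNCCAC, a form of the sterol regulatory element, and for CCAAT. None of the 16 sterol enzyme promoters found held TCACNCCAC, which 1.15% of all 27305 promoters held, and 12 of the 16 held CCAAT, against 35.7% of all promoters and 36.8% of the 10019 found for compared genes. The 2 shown had the largest ratios among enzymes whose promoter was found and held a match, HMGCS1 (chr5:43313363-43313662, minus strand) and DHCR7 (chr11:71448344-71448643, minus strand), read 5′ to 3′, with CCAAT or its reverse complement in capitals.
HMGCS1: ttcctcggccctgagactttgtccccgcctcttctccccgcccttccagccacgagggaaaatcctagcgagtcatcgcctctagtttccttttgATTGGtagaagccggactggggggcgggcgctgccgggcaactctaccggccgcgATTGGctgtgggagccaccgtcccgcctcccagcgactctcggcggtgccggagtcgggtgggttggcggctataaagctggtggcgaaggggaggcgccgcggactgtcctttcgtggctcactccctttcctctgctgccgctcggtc
DHCR7: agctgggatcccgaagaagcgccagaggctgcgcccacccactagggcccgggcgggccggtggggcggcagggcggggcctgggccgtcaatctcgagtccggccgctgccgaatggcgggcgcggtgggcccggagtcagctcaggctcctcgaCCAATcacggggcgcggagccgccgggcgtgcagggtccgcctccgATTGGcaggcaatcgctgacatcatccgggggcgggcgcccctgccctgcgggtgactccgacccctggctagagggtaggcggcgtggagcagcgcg

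DNA replication starts with the origin recognition complex, CDC6 and CDT1, which load the MCM helicase. Of the 21 licensing genes 16 had a ratio above 0, 2 were 2-fold higher and none was 2-fold lower, with a median of 0.38. The 2 were subunits of the MCM ring. MCM5 had 45.8 FPKM in WT starved against 19.3 FPKM in WT mock cells, and MCM2 had 32.2 FPKM against 15.5 FPKM. The other ring subunits had log2 ratios of 0.94 (MCM4), 0.76 (MCM3), 0.56 (MCM6) and 0.47 (MCM7), so all of the ring lay above 0, while the origin-binding subunits ORC1 to ORC6 lay between -0.30 and 0.12. Of 27 genes of the fork and of nucleotide supply, UNG was the only one past 2-fold, with 36.1 FPKM in WT starved and 15 FPKM in WT mock cells. The flap nuclease FEN1 (0.82) and the clamp PCNA (0.47) followed, and the list median was 0.09. Among 25 regulators of the G1 to S step, E2F1, the factor that drives many of these genes, was 2-fold higher (13.3 FPKM in WT starved, 5.86 FPKM in WT mock). Cyclin E2, CCNE2, had 3.6 FPKM in WT starved and 1.53 FPKM in WT mock cells. Of 7 inhibitors of cyclin-dependent kinases 2 were 2-fold lower, CDKN2D (8.19 FPKM in WT starved, 23.2 FPKM in WT mock) and CDKN1C (6.65 and 17.2 FPKM). CDKN1A, the p21 inhibitor, had 50.4 FPKM in WT starved and 99.1 FPKM in WT mock cells. CDKN1B, the p27 inhibitor, had 16.5 FPKM in WT starved and 20.4 FPKM in WT mock cells. None of the inhibitors was 2-fold higher. The median over all 25 was -0.05 as deposited and turned positive under each rescaling, at 0.13 to 0.17.

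E2F factors bind sites close to TTTCCCGC. At least 1 of TTTCCCGC, TTTGGCGC, TTTCGCGC and TTTGCCGC, on either strand, was in 10 of 18 licensing promoters, against 3.33% of all promoters and 5.34% of those of compared genes. Shown are MCM2 (chr3:127598161-127598460, plus strand) and MCM3 (chr6:52284693-52284992, minus strand), with these letters in capitals. In MCM2 a pair of matches on opposite strands overlap.
MCM2: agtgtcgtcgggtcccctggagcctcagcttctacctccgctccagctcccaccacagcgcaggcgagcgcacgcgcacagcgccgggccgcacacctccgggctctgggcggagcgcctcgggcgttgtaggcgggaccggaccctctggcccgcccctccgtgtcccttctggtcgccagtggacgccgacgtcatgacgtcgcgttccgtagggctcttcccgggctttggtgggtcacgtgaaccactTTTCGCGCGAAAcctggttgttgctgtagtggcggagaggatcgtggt
MCM3: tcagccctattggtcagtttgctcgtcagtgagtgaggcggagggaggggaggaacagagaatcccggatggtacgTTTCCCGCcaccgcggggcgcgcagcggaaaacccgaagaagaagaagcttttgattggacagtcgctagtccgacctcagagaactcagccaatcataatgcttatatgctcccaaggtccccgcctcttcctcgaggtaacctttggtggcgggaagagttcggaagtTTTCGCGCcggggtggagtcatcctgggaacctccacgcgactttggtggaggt

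Mitosis genes formed the largest list. All 46 had a negative ratio, 25 were at least 2-fold lower and none was higher, with a median of -1.02. None of the 46 met the 4-fold or the 2-fold rule for genes high only in WT mock. Among cyclins, kinases and phosphatases 5 of 10 were 2-fold lower. The master kinase CDK1 had 32.6 FPKM in WT starved against 67.9 FPKM in WT mock cells, its partner CCNB1 had 48.9 against 96.1 FPKM, and the centrosome kinase NEK2 had 10.3 against 33.6 FPKM. Spindle checkpoint genes were 2-fold lower in 4 of 6, with CDC20, the activator of the anaphase-promoting complex, at 65.1 FPKM in WT starved and 176 FPKM in WT mock cells and BUB1 at 9.68 and 28.8 FPKM. The checkpoint protein BUB3 differed less (-0.35). Centromere and kinetochore genes were lower in 5 of 10, including CENPA, the centromeric histone (7.14 FPKM in WT starved, 21.2 FPKM in WT mock), and motors and spindle proteins in 7 of 14, including the cytokinesis motor KIF20A (10.5 and 33.6 FPKM). ANLN, an actin-binding protein of the cleavage furrow, had the most negative ratio of the list, -1.69, with 9.90 FPKM in WT starved and 34.1 FPKM in WT mock cells. PTTG1, securin, had 57.3 FPKM in WT starved and 185 FPKM in WT mock cells. FOXM1, a transcription factor for many of these genes, was close to the shift of all genes (-0.33). In KO cells 3 of the 46 were 2-fold lower with a median of -0.56, beside a KO median of -0.06 over all features. The difference between genotypes was not tested.

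Many mitosis promoters carry a CHR element, TTTGAA, bound by the MuvB complexes, near CCAAT boxes. TTTGAA was in 26 of 39 mitosis promoters, against 15.4% of all promoters and 9.10% of those of compared genes, and CCAAT in 30 of 39. Over all 308 promoters found for lower genes 19.5% held TTTGAA. Shown are ANLN (chr7:36389612-36389911, plus strand) and PTTG1 (chr5:160421605-160421904, plus strand). Capitals mark TTTGAA in ANLN, as a pair of abutting matches on opposite strands, and CCAAT in PTTG1, where 2 of the 3 matches overlap on opposite strands.
ANLN: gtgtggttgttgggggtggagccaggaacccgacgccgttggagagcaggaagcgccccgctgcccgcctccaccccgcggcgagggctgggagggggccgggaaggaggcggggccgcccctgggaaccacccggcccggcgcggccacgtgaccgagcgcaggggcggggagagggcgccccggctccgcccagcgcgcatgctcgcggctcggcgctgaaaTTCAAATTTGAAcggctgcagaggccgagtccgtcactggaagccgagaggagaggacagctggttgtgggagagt
PTTG1: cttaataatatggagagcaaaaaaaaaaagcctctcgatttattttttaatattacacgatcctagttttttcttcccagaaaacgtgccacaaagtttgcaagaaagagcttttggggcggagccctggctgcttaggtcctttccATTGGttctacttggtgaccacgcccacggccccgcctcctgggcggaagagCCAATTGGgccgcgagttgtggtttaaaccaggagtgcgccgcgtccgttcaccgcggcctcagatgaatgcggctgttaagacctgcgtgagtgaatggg

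Cells sense oxygen through prolyl hydroxylases that mark HIF factors for destruction, and KDM3A is one of the known HIF target genes. All 29 compared genes of the hypoxia list outside glycolysis had a negative ratio, 18 were 2-fold lower and the median was -1.07. Of the 18, CA9, KDM3A and LOX met the 2-fold rule for genes high only in WT mock and the other 15 did not. The factors and hydroxylases differed least: HIF1A had 16.6 FPKM in WT starved and 20.8 FPKM in WT mock cells, and only EGLN3, itself a HIF target, was 2-fold lower among these 6 (4.90 and 15 FPKM). Of 23 targets 17 were 2-fold lower. ANKRD37, an ankyrin repeat protein, had 2.71 FPKM in WT starved against 22.7 FPKM in WT mock cells. The growth factor PDGFA had 4.05 against 30.6 FPKM, and the lipase inhibitor ANGPTL4 had 9.77 against 54.2 FPKM. In KO cells the same 3 genes gave 3.12 FPKM in KO starved against 36.3 FPKM in KO mock (ANKRD37), 7.18 against 70.4 FPKM (PDGFA) and 12.6 against 87.1 FPKM (ANGPTL4). Their log2 ratios in KO cells were -3.18, -3.13 and -2.70, and the difference from WT was not tested. NDRG1 had 97.9 FPKM in WT starved and 330 FPKM in WT mock cells, and the collagen-modifying enzymes LOXL2 (20.4 and 71.8 FPKM) and P4HA1 (32.2 and 85.9 FPKM) differed in the same direction. VEGFA, a classical HIF target, had 23.3 FPKM in WT starved and 29.8 FPKM in WT mock cells (log2 ratio -0.34), near the shift of all genes. In KO cells 9 of the 29 were 2-fold lower, none was higher and the median was -0.82.

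Glycolysis, much of which HIF also controls, differed in the same direction. All 22 genes had a negative ratio and 9 were 2-fold lower, with a median of -0.81. PGK1, phosphoglycerate kinase, had 249 FPKM in WT starved against 753 FPKM in WT mock cells, and the enolase ENO2 had 61.7 against 179 FPKM. The isomerase GPI had 134 against 306 FPKM. At the entry of the pathway the glucose transporter SLC2A3 had 0.810 against 4.05 FPKM and hexokinase HK2 had 5.71 against 14.4 FPKM. The phosphofructokinase subunits PFKL (-0.19) and PFKM (-0.14) were near the shift of all genes. Reads of PGK1, ENO1, LDHA, PKM and GAPDH could be shared with processed pseudogenes. KO cells had 6 of the 22 genes 2-fold lower, with a median of -0.62.

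The core of the hypoxia response element is ACGTG or GCGTG, letters that are common in promoters rich in CG. On either strand they were in 20 of 24 promoters of the hypoxia list, against 48.4% of all promoters and 63.7% of those of compared genes. Over all lower genes the share was 62.7%, near that background. Shown are ANKRD37 (chr4:185396591-185396890, plus strand) and PDGFA (chr7:520177-520476, minus strand) with these letters in capitals. In ANKRD37 the first run is a palindrome that matches on both strands.
ANKRD37: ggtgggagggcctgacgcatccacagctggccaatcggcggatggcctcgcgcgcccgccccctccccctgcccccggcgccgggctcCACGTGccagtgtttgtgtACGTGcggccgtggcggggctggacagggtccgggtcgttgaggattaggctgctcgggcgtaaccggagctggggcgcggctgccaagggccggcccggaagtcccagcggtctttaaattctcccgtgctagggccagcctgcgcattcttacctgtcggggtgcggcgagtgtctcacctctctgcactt
PDGFA: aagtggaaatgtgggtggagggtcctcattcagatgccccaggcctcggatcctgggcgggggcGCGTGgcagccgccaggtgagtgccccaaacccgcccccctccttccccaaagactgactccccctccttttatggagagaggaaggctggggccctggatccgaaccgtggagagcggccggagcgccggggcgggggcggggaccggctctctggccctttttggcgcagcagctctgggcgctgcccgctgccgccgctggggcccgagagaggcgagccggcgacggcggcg

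Interferon-stimulated genes answer to interferon signalling and encode antiviral proteins. Of 34 compared, 31 had a ratio above 0, 5 were 2-fold higher and none was 2-fold lower, with a median of 0.50. IFIT3 had 10.4 FPKM in WT starved against 2.55 FPKM in WT mock cells, IFIT2 had 6.14 against 2.14 FPKM, and IFI44 had 7.16 against 2.93 FPKM. The first 2 encode RNA-binding proteins that restrain viral translation. PARP9 had 16.7 FPKM in WT starved and 7.27 FPKM in WT mock cells, and PARP10 had 8.54 and 2.77 FPKM. Both encode ADP-ribosyltransferase family proteins. Close below 2-fold stood OAS1 (0.97), the RNA-activated synthetase, and the tetherin BST2 (0.91). The factors differed less: IRF9 had 32.9 FPKM in WT starved and 24.0 FPKM in WT mock cells, and no sensor or factor reached 2-fold. MX1 lay at -0.54, with 0.549 FPKM in WT starved and 1.25 FPKM in WT mock cells. IFITM1, IFITM2 and IFITM3 are near-identical copies and uncertain. The KO comparison gave 5 higher, none lower and a median of 0.63. The interferon-stimulated response element was searched as its core GAAANNGAA, found in 19 of 26 promoters of the list, against 8.29% of all promoters, 6.0% of those of compared genes and 18.5% of the 27 found for higher genes. Shown are IFIT3 (chr10:89327747-89328046, plus strand) and IFI44 (chr1:78649539-78649838, plus strand), with the core, here on the minus strand of the printed sequence, in capitals.
IFIT3: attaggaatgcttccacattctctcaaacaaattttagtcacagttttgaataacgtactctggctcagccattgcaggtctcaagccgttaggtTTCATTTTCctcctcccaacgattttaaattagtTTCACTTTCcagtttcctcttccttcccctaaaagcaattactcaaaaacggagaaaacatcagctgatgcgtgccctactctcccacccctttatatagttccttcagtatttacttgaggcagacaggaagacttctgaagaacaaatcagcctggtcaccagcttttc
IFI44: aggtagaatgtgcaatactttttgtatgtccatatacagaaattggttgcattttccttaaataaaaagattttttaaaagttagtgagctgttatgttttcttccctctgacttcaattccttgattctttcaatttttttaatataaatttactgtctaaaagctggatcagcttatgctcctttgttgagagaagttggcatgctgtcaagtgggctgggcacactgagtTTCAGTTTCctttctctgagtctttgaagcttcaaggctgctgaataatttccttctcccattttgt

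**Figure D2:**
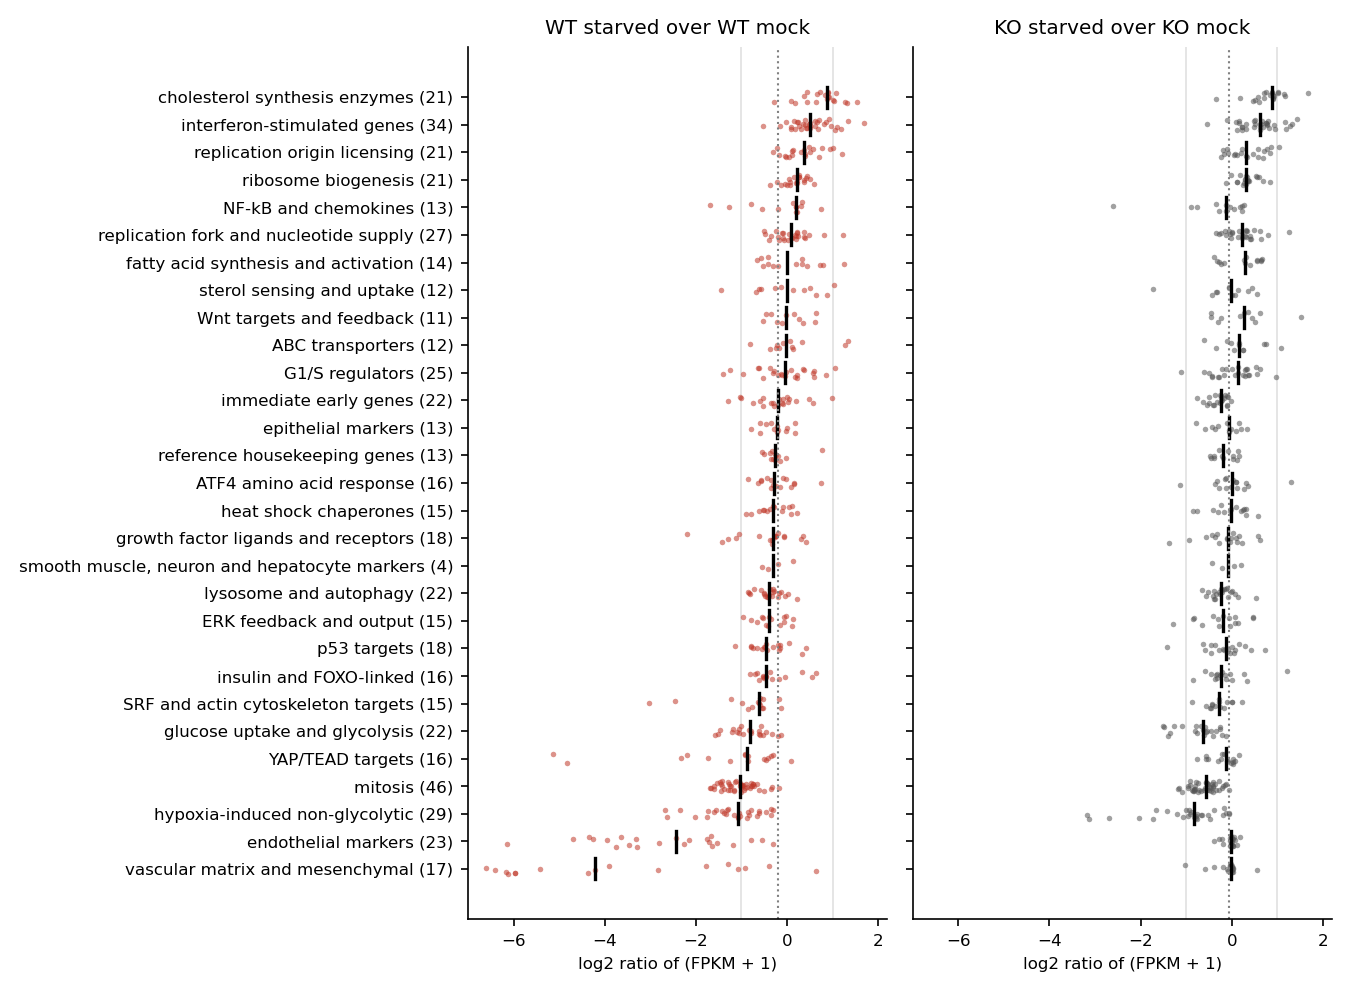
Log2 ratios of (FPKM + 1), starved over mock, for the compared genes of each list with at least 4 of them (number in brackets), in WT (left, red) and KO cells (right, grey), 1 point per gene. Black bars are list medians, dotted lines the medians of all features (-0.20 in WT, -0.06 in KO) and pale lines mark 2-fold; endothelial and vascular matrix lists reach below -6 in WT and stay near 0 in KO.

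Immediate early genes are switched on by serum without new protein synthesis. Of 22 compared 3 were 2-fold lower, none was higher and the median was -0.19, which the rescalings moved to between -0.01 and 0.02. FOS, an AP-1 subunit, had 8.17 FPKM in WT starved and 8.01 FPKM in WT mock cells, and EGR1 had 26.9 and 23.5 FPKM. In WT refed cells FOS was at 51.2 FPKM and EGR1 at 147 FPKM. The 3 lower genes were FOSL2 (3.54 FPKM in WT starved, 10.1 FPKM in WT mock), JUN (8.19 and 17.5 FPKM) and KLF4 (4.21 and 9.61 FPKM). None of the 15 genes of ERK feedback and output reached 2-fold and their median was -0.41. The phosphatase DUSP6, a marker of ERK activity, had 54.9 FPKM in WT starved and 49.7 FPKM in WT mock cells. Of 9 growth factor receptors none reached 2-fold, whereas 5 of 9 ligands were 2-fold lower. These were the EGF family members AREG (44.8 FPKM in WT starved, 98.6 FPKM in WT mock), HBEGF (1.46 and 5.04 FPKM) and TGFA (6.82 and 15.2 FPKM), PDGFB (3.70 and 11.6 FPKM), and TGFB2, which was high only in WT mock. The list of 18 had a median of -0.30. In KO cells 1 of the 9 ligands was 2-fold lower (ligand median -0.33, against -1.05 in WT). None of the 22 immediate early genes (KO median -0.24) and 1 of the 15 ERK genes (-0.20) was 2-fold lower in KO. The difference between genotypes was not tested.

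YAP and TEAD factors drive genes of growth and adhesion, and lysophospholipids of serum activate them. Of 16 targets 6 were 2-fold lower and the median was -0.89, but 4 of the 6, ANKRD1, TGFB2, CRIM1 and NT5E, met the 2-fold rule for genes high only in WT mock, the first 3 also the 4-fold rule. The other 2 were CTGF and CYR61, which encode secreted matricellular proteins. CTGF had 1.24 FPKM in WT starved and 62.3 FPKM in WT mock cells, and CYR61 had 7.66 and 27.8 FPKM. In WT refed cells CTGF was at 64.0 FPKM and CYR61 at 444 FPKM, so neither was confined to WT mock. In KO cells CTGF was low in both states, at 1.20 FPKM in KO starved and 1.34 FPKM in KO mock, and no YAP target differed 2-fold. Of 15 genes of SRF and the actin cytoskeleton all had a negative ratio and 3 were 2-fold lower, with a median of -0.62. TAGLN, an actin cross-linker, had 3.84 FPKM in WT starved and 38.4 FPKM in WT mock cells. The myosin heavy chain MYH9 had 40.7 and 96.2 FPKM, and the tropomyosin TPM1 was high only in WT mock. In KO cells none of these 15 genes was 2-fold lower, with a median of -0.28. CTGF, TAGLN and MYH9 are also strongly expressed by vascular cells, and the part of the vascular transcripts in their WT mock values was not tested.

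Genes known to answer to loss of nutrients or of insulin signalling did not reach 2-fold. None of 16 insulin and FOXO-linked genes did (median -0.47), and 13 of them had a negative ratio, as did most of all features. The receptor substrate IRS1 (17.0 FPKM in WT starved, 11.4 FPKM in WT mock) and the PI3K inhibitor PIK3IP1 (3.01 and 1.58 FPKM) were among the 3 with a positive ratio. None of 16 genes of the ATF4 amino acid response reached 2-fold (median -0.28), with ASNS, asparagine synthetase, at 16.6 FPKM in WT starved and 22.7 FPKM in WT mock cells. None of 22 genes of lysosomes and autophagy did (median -0.39), nor any of 21 of ribosome biogenesis, whose median was 0.23 with 17 above 0 and the nucleolar protein NOP56 at 106 FPKM in WT starved and 69.8 FPKM in WT mock cells. MYC, which drives ribosome biogenesis, had 117 FPKM in WT starved and 77.9 FPKM in WT mock cells. Without replicates these medians cannot be set against an error. In 13 housekeeping genes the median was -0.27, close to that of all features.

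The 87 genes high only in WT mock had a median of 0.0430 FPKM in WT starved and 9.06 FPKM in WT mock cells, and of 0.0569 FPKM in WT refed, 0.0254 FPKM in KO starved, 0.0262 FPKM in KO mock and 0.0334 FPKM in KO refed cells. Because the rule used these values, they are a description. In all they summed to 46.0 FPKM in WT starved and 2029 FPKM in WT mock cells, 0.0100% and 0.389% of the summed FPKM without short RNA. Of the 87, 75 were under 1 FPKM and 3 were listed at 0 in WT starved cells, and 1 was listed at 0 in all 5 other columns. Among the 12 highest in WT mock were the matrix proteins THBS1, FN1, BGN, HSPG2 and EFEMP1, the intermediate filament VIM, the collagenase MMP1 and gelatinase MMP2, the clotting factor VWF of endothelial cells, IGFBP7 and TPM1. VIM had 1.21 FPKM in WT starved and 153 FPKM in WT mock cells, FN1 0.950 and 140 FPKM, MMP1 0.00657 and 84.3 FPKM, and VWF 0.0899 and 75.9 FPKM. THBS1 had 0.798 FPKM in WT starved and 175 FPKM in WT mock cells, and 35.7 FPKM in WT refed cells. Of the 87 genes, 2 were 2-fold higher in WT refed than in WT starved cells, THBS1 among them. Just inside the 4-fold limit lay DYSF, with a ratio of 4.01 to the next column, and just outside it COL5A2, with 3.92.

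Of 28 endothelial markers, 5 reached 1 FPKM in WT starved and 23 in WT mock cells, 5 in KO starved, 5 in KO mock, 4 in WT refed and 5 in KO refed cells. Their summed level was 64.6 FPKM in WT starved and 360 FPKM in WT mock cells, 77.2 FPKM in KO starved and 99.5 FPKM in KO mock cells, 55.2 FPKM in WT refed and 78.7 FPKM in KO refed cells. Of the 23 compared 20 were 2-fold lower, with a median of -2.43. Most of the 23 passed the 1 FPKM filter only through WT mock and so could only be lower. The count and the median are therefore a description. All 20 met the 2-fold rule for genes high only in WT mock, and 14 were among the 87. CDH5, the cadherin of endothelial junctions, had 0.0311 FPKM in WT starved and 25.8 FPKM in WT mock cells and was listed at 0 in both KO starved and KO mock cells. PECAM1 had 0.0638 and 15.5 FPKM. None of the 28 was at 0 in WT starved, WT mock or WT refed, while 9 were at 0 in KO starved, 8 in KO mock and 4 in KO refed cells. Zeros were also more frequent in KO columns over all 26372 features, with 7113 in KO starved, 7312 in KO mock and 7075 in KO refed. There were 4300 in WT starved, 6401 in WT mock and 4301 in WT refed. EGFL7, at 52.5 FPKM in WT starved and 77.2 FPKM in WT mock cells, made up most of the sum outside WT mock. Of 17 vascular matrix and mesenchymal genes 14 were lower (median -4.22), all 14 met the 2-fold rule and 11 were among the 87. Of the 17, 7 reached 1 FPKM in WT starved and 16 in WT mock cells, so the filter acted there in the same way. Markers of other cell types were mostly under 1 FPKM in both WT states. Of 10 fibroblast markers only COL1A1 was compared (19.9 FPKM in WT starved, 23.6 FPKM in WT mock), and of 10 leukocyte markers only CD68 (4.46 and 12.2 FPKM), with PTPRC and CD3E both under 0.06 FPKM in each. Of 8 smooth muscle, neuron and hepatocyte markers 4 were compared, none past 2-fold, with a median of -0.31. In bulk RNA fewer cells of a type and less RNA per cell cannot be told apart. The KO mock column, of the same medium, had a median of 0.0262 FPKM for the 87 genes, against 9.06 FPKM in WT mock. With 1 column per group, the cause of the high values in WT mock was not tested.

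**Figure D3:**
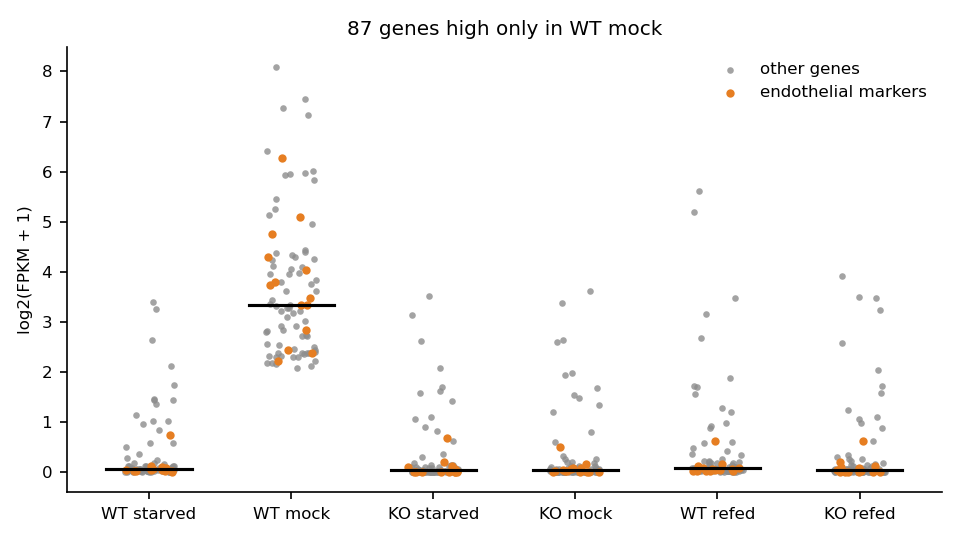
Log2(FPKM + 1) of the 87 genes high only in WT mock in each of the 6 columns, 1 point per gene, endothelial list members in orange and medians as black bars. The median is 9.06 FPKM in WT mock and under 0.06 FPKM in every other column, and THBS1 is 1 of the 2 high points in WT refed.

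The KO cells give a second pair of cultures under the same change of medium, of another genotype. Over the 12954 features, 93 (0.718%) were 2-fold higher and 138 (1.07%) 2-fold lower in KO starved than in KO mock cells. Leaving out short RNA and the 87 genes, 12125 genes were at 1 FPKM or more in both comparisons. This KO filter kept 12125 of 12587 genes, 38 of the 43 higher in WT and 271 of the 390 lower in WT. Of the 254 lower genes outside the 2-fold rule for WT mock it kept 241. Most lower genes that it removed were thus high only in WT mock under that rule, and the counts below leave them out. Across these genes, which are not independent replicates, the WT and KO log2 ratios had a Pearson correlation of 0.785 and a Spearman correlation of 0.804. All 38 genes higher in WT had a KO ratio above 0, and 10 were 2-fold higher in KO too, which is 26.3% of the 38 and 32.3% of the 31 in KO. Of the 271 lower in WT, 255 had a KO ratio below 0 and 62 were 2-fold lower in KO, which is 22.9% of the 271 and 59.0% of the 105 in KO. For comparison, KO ratios over the 12587 genes had a lower quartile of -0.28 and an upper quartile of 0.14. No gene was 2-fold higher in one genotype and 2-fold lower in the other. With so few genes past 2-fold, unrelated lists would also share few, so this absence is only a description. The median KO ratio was 0.80 for the 38 and -0.67 for the 271, against -0.07 for all 12125. Without the genes of the 2-fold rule, 241 lower genes remained in WT, 59 of them lower in KO. Among named genes HMGCS1 had 47.1 FPKM in KO starved against 14.0 FPKM in KO mock cells, and UNG had 38.2 against 15.5 FPKM, as in WT. TSPAN1, at 77.9 FPKM in WT starved and 32.0 FPKM in WT mock cells, had 57.6 FPKM in KO starved and 46.6 FPKM in KO mock cells. KRT7 was opposite in sign, with 4.91 FPKM in WT starved and 25.2 FPKM in WT mock cells but 15.2 FPKM in KO starved and 7.89 FPKM in KO mock cells, short of 2-fold on the log2(FPKM + 1) scale (0.87).

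**Figure D4:**
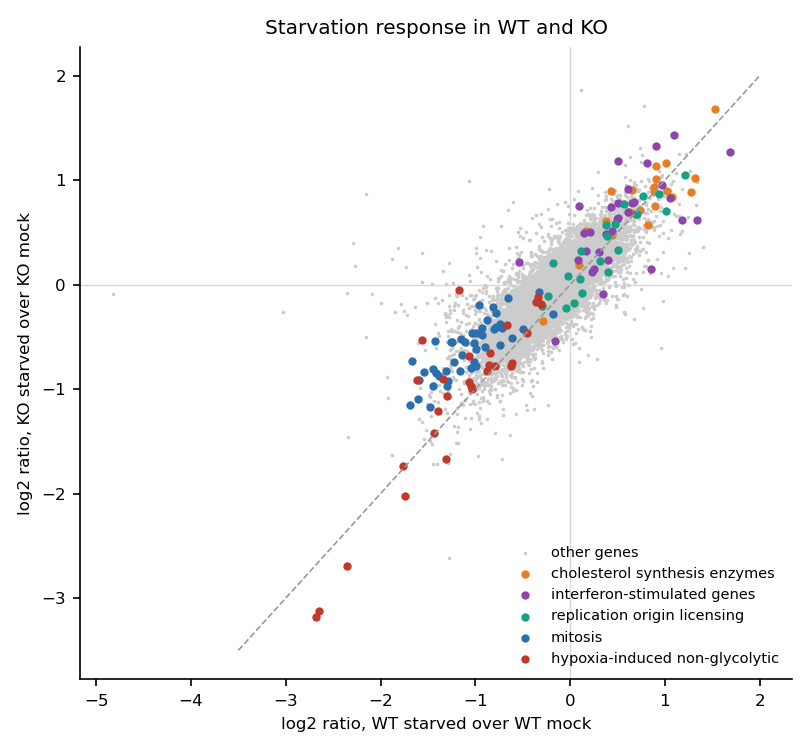
Log2 ratio of (FPKM + 1), starved over mock, in WT (horizontal) against KO cells (vertical) for 12125 genes, without short RNA and the 87 genes high only in WT mock; the dashed line marks equal ratios and colours mark 5 lists. Sterol enzymes, interferon-stimulated and licensing genes lie mostly at the upper right, mitosis and hypoxia genes at the lower left, and CTGF stands alone at the far left (-4.82 in WT, -0.09 in KO).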

How the data were processed

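Polyadenylated RNA of 12 HCT116 samples in 6 groups was sequenced, per the labels' protocols. The deposited values are FPKM computed by the authors, 1 column per group and 26372 symbols per column. The sources do not say how each pair of samples entered its column. The submitters' processing notes name FastQC, cutadapt, TopHat2 and hg19. The program that computed FPKM and its annotation are not given in the sources used here. Log2 ratios were taken of (FPKM + 1) as deposited, over genes at 1 FPKM or more in either WT column, with Python 3.11.15, numpy 2.4.6, pandas 2.3.3 and matplotlib 3.10.9. The calculation was tested on simulated data. With 1 value per group no test was run, and precision is unknown. No short RNA feature or read-through gene is named. Named genes were KDM3A, the 15 largest positive and 15 largest negative ratios with 5 FPKM in the higher WT column, the 12 highest genes of those high only in WT mock, and any member of 31 gene lists. The ranking of ratios left out short RNA, genes high only in WT mock, read-through genes, clone-type names and, by name, an X-linked RNA. DYSF was named after its value was seen, as the gene nearest a limit. Members, lists and motifs were chosen with earlier results of these data known. Symbols were matched to RefSeq for 25265 features. Other pseudocounts, filters, rescalings and gene exclusions were tried. Some list members are counted but not reported by name here.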

Additional observations from a re-analysis of the deposited data

How the results depend on the processing

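No paired analysis was possible because each group has 1 deposited value, and for the same reason no replicate could be left out. With a pseudocount of 0.1 in place of 1, 232 features were 2-fold higher and 914 lower in WT starved cells, and with 5 there were 59 and 174, against 139 and 526. Among genes at 5 FPKM or more 91 were higher and 332 lower. Median-ratio rescaling gave 210 higher features. Without short RNA 43 were higher, also when genes high only in WT mock were left out. Without the genes of the 2-fold rule, which takes 223 genes in place of 87, 287 were lower. The median of all features, -0.20, was -0.031 with no filter, -0.011 after median-ratio, -0.031 after upper-quartile and -0.041 after equal-sum rescaling. The endothelial median of -2.43 was -5.37 with a pseudocount of 0.1, -1.15 with 5, -3.48 at 5 FPKM or more and -1.54 without the genes of the 4-fold rule, with or without short RNA. The vascular matrix median of -4.22 was -6.74, -2.20, -4.89 and -0.995 under the same settings. Without the genes of the 2-fold rule 3 genes of each of these lists were left, none 2-fold lower, with medians of -0.55 (endothelial) and -0.40 (vascular matrix). Where not clear from the construction, the cause was not tested. The other list medians moved by less than 0.58 on the log2 scale. Of 138 genes followed, 77 were past 2-fold, none changed sign and 24 of the 77 were under 2-fold in at least 1 alternative. The pseudocount of 1 understates differences of low genes, and counting error is unknown.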

Other observations

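Several further groups of genes were compared, all with 1 value per group and no test. ABC transporters held 2 of the highest ratios, in ABCC3 (49.8 FPKM in WT starved, 19.2 FPKM in WT mock) and ABCC2 (47.2 and 19.0 FPKM), pumps of conjugated organic anions, while the other 10 of the 12 stayed within 2-fold and the median was -0.02 (0.15 to 0.18 after the rescalings). In KO cells ABCC2 had 29.8 FPKM in KO starved and 13.5 FPKM in KO mock cells. Of 13 NF-kB and chemokine genes 2 were 2-fold lower, the decoy receptor TNFRSF6B (104 FPKM in WT starved, 252 FPKM in WT mock) and the adhesion protein ICAM1 (0.169 and 2.76 FPKM), with a median of 0.19. TNFRSF6B also differed in KO cells, at 28.7 FPKM in KO starved and 180 FPKM in KO mock cells.

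Of 18 p53 targets 1 was 2-fold lower, the RNA-binding protein ZMAT3 (1.47 FPKM in WT starved, 4.42 FPKM in WT mock), which is 5.56% of the list beside 4.06% of all features, and the median was -0.45. None of 11 Wnt targets reached 2-fold (median -0.01, and 0.15 to 0.18 after the rescalings). AXIN2, the feedback inhibitor of that pathway, had 3.97 FPKM in WT starved and 2.24 FPKM in WT mock cells, and 8.98 FPKM in KO starved and 2.49 FPKM in KO mock cells. None of 15 heat shock chaperones reached 2-fold (median -0.30). HSPA1A and HSPA1B are near-identical copies and uncertain. TFRC, the transferrin receptor, was the housekeeping gene with the largest ratio, at 27.6 FPKM in WT starved and 15.8 FPKM in WT mock cells.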
